A study of Homo sapiens with 12 samples.

Results

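The 34 genes described here encode the enzymes that build cholesterol and fatty acids, the regulators of the SREBP transcription factors that control them, and proteins that move sterols between membranes. They were listed by name from the known pathway, at a time when earlier results of these data were known. They comprise 7 enzymes of the mevalonate pathway up to farnesyl diphosphate, 11 enzymes that turn farnesyl diphosphate into sterols, 4 regulators, 4 sterol carriers or transporters and 8 enzymes of fatty acid synthesis. All 34 are among the 14862 genes of the authors' normalized count table. Of these, 33 were found by symbol, and ACACA, acetyl-CoA carboxylase, was found by its identifier. All 34 passed a filter on low values (10 or more normalized counts in 3 or more libraries), which left 14857 genes for testing.

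RNA was sequenced from hTERT-RPE1, a human retinal pigment epithelial line immortalized with telomerase and labelled as parental and wild type in every group. The siRNA was given overnight at 20 nM, and cells were harvested after 48 hours. There were 4 groups of 3 libraries. The control group, siNeg, received the negative control siRNA. The siCENPF group was depleted of CENPF, a kinetochore protein, the siFOXM1 group of FOXM1, a transcription factor of mitotic genes, and the siCENPF+siFOXM1 group of both. No source used here says whether the combined group received this dose of each siRNA, or whether an siRNA was a single duplex or a pool.

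SREBF1 and SREBF2 encode precursors of the SREBP factors, which sit in the membrane of the endoplasmic reticulum. SCAP escorts the precursors to the Golgi when sterols are scarce, where proteases release the part that enters the nucleus. INSIG1 retains SCAP in the endoplasmic reticulum when sterols are abundant, and it is itself an SREBP target, which closes a feedback loop. The released factors bind sterol regulatory elements in the promoters of sterol and fatty acid genes, commonly beside CCAAT boxes bound by NF-Y and GC boxes bound by Sp1.

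Promoter sequences are shown for SREBF2, INSIG1, MSMO1 and SCD, a set of 2 regulators, 1 sterol enzyme and 1 fatty acid enzyme whose levels are described below. Each run is the 250 bases before a start annotated by RefSeq on GRCh38.p14, 5′ to 3′ on the plus strand of the gene's chromosome. Gene coordinates given further below are from the authors' annotation, which differs. In these 4 genes the authors' start lies before the RefSeq start, at 100347124 for SCD and 41833079 for SREBF2. The end of each run thus lies inside the gene as the authors place it. The 4 genes lie on the plus strand. Capitals mark the motifs TCACNCCAC (a sterol regulatory element), CCAAT and CACGTG (an E-box), searched on both strands, so that CCAAT on the other strand reads ATTGG.
SREBF2, chr22:41832855-41833104: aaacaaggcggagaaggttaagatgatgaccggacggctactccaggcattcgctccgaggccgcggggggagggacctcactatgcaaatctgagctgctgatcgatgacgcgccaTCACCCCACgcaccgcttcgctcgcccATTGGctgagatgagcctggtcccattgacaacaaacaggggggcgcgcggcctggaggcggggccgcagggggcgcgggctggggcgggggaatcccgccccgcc
INSIG1, chr7:155297628-155297877: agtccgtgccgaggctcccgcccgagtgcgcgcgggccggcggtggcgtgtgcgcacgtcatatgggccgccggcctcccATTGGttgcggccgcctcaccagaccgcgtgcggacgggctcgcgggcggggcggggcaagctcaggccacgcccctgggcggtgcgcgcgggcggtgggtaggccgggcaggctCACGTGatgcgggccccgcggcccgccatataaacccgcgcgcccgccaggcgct
MSMO1, chr4:165327419-165327668: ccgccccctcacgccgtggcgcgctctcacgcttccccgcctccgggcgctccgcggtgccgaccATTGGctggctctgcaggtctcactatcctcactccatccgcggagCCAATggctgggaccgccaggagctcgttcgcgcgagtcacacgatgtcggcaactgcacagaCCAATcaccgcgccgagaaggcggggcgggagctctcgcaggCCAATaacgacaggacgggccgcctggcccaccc
SCD, chr10:100346983-100347232: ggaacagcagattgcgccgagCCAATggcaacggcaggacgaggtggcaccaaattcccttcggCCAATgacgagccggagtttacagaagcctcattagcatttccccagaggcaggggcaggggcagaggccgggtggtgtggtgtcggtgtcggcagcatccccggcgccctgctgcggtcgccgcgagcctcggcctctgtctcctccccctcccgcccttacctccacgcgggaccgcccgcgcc

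The SREBF2 window held the sterol regulatory element 133 bases before the RefSeq start and a CCAAT box 106 bases before it. INSIG1 had a CCAAT box 170 bases and an E-box 55 bases before the start. MSMO1 had 4 CCAAT boxes, 185, 139, 76 and 34 bases before the start, and SCD had a pair, 229 and 186 bases before it. RefSeq windows were found for 30 of the 34 genes. CCAAT stood in the windows of 21 of these 30 (70.0%), against 37.0% of the 27305 genes with a window. The word TCACNCCAC stood in 1 of the 30, SREBF2, against 1.09% of all genes, and CACGTG in 4 (ABCA1, INSIG1, SC5D and SCAP), against 7.73%. The GC box GGGCGG, on either strand, stood in 29 of the 30, against 46.2%. The background is every gene with a window, whether or not it passed the low-value filter, which all 34 genes did. The sets were thus not matched for expression. A match is a description of the sequence and not evidence of a bound site.

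Both targets fell in the cells given their siRNA, CENPF to 10.8% of siNeg with siCENPF and to 15.8% with both, and FOXM1 to 15.2% with siFOXM1 and to 17.7% with both. Libraries held 13671250 to 35411230 reads counted in genes, and the deepest were siNeg 3 and siCENPF 3 (31302177). The epithelial keratins KRT8 and KRT18 had median FPKM of 17.2 and 33.3, whereas CDH1 and EPCAM had a median of 0. Of the markers of differentiated retinal pigment epithelium, BEST1 had a median FPKM of 40.8, and RLBP1, TTR and TYR a median of 0. MITF stood at 1.05, and 7 of the 9 listed markers had a median under 1 FPKM. Exon overlap with other genes was examined for the lipid genes and not for BEST1. Markers of lipid-rich cells were nearly absent: the 5 adipocyte markers summed to 0.101 to 0.575 FPKM, with ADIPOQ, PLIN1, LEP and CIDEC at 0 in every library, and the 5 hepatocyte markers to 0 to 0.0109. The 8 blood and endothelial markers summed to 0.00621 to 0.149 FPKM, and the 5 neural markers to 2.30 to 3.42, most of it SYT1 (median 2.65). The 7 fibroblast markers summed to 12.6 to 22.2 FPKM, chiefly THY1 (median 12.8). In bulk RNA, fewer cells of a type and less RNA per cell cannot be told apart. Nothing in the labels says that the replicates are separate cultures, so p-values measure only the spread between these samples.

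Libraries with the same replicate number stood together in most of the lipid genes. The median difference between numbers was larger than the median difference between siRNAs. The reverse held for NPC1, at 0.42 with siFOXM1 and -0.34 for number 2 minus number 1, and for SCAP and ACLY. Libraries numbered 1 were low, those numbered 2 high and those numbered 3 mostly between them, in control and knockdown cells alike. The median difference of number 2 from number 1 over the 34 genes was 0.61 on the log2 scale, and that of number 3 from number 1 was 0.40, against 0.00 for both over all genes tested. An F test over the replicate numbers, in the limma fit with the 4 groups, called 30 of the 34 genes, against 46.4% of all genes. PMVK, NSDHL, SCAP and ACLY did not pass. Number 1 was lowest and number 2 highest within every group for 20 of the 34 genes, against 3.96% of all genes, and number 1 was lowest within every group for 25, against 8.8%. These orders were looked for after the values were seen. The share of reads from mitochondrially encoded genes was 2.68% to 2.93% in number 1, 2.25% to 2.42% in number 2 and 2.05% to 2.46% in number 3. The part of that difference in the result was not tested, and the labels do not say what a number stands for.

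**Figure D1:**
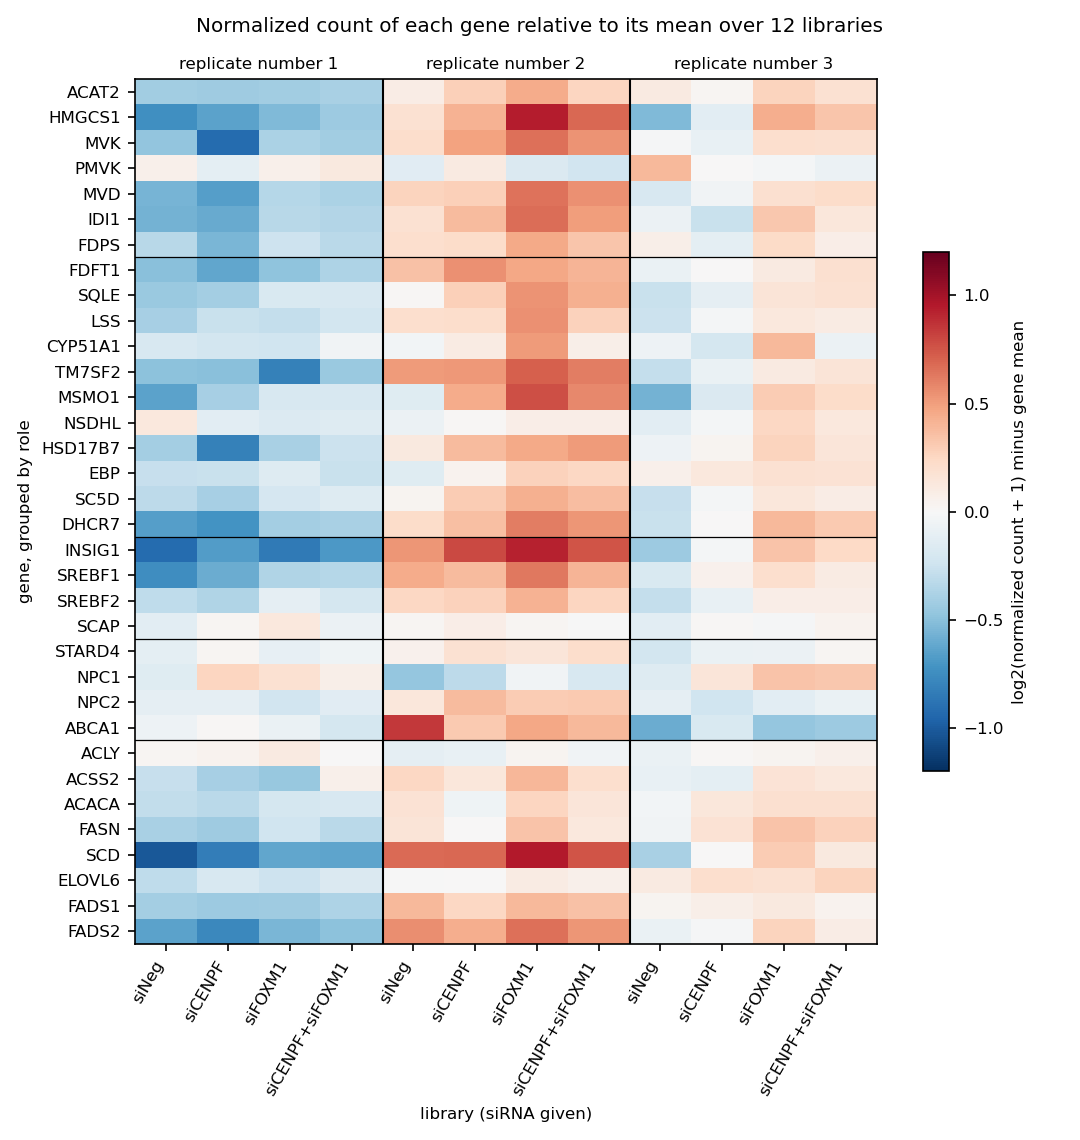
Heat map of the 34 genes (rows, grouped by role) in the 12 libraries (columns, grouped by replicate number), coloured by log2(normalized count + 1) minus the gene's mean over all libraries. Number 1 is blue and number 2 red for most genes, the median difference being 0.61, while number 2 lies below number 1 on average for NPC1 (-0.34), PMVK (-0.14) and ACLY (-0.10).

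The differences between numbers were largest in SCD and INSIG1. SCD, the stearoyl-CoA desaturase that makes monounsaturated fatty acids, was 1.54 higher on the log2 scale in number 2 than in number 1. INSIG1 was 1.53 higher, FADS2, a fatty acid desaturase, 1.16 higher, TM7SF2, a sterol reductase, 1.15 higher, and HMGCS1, which makes HMG-CoA, 1.14 higher (limma F test adjusted p at most 6.11e-05 for these 5). NPC1, which exports cholesterol from lysosomes, ran the other way, 0.34 lower in number 2 than in number 1 (adjusted p = 2.51e-06). Within siNeg, the highest library exceeded the lowest 3.23-fold for SCD, 2.74-fold for INSIG1 and 2.72-fold for ABCA1, but 1.11-fold for SCAP and 1.10-fold for ACLY.

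**Figure D2:**
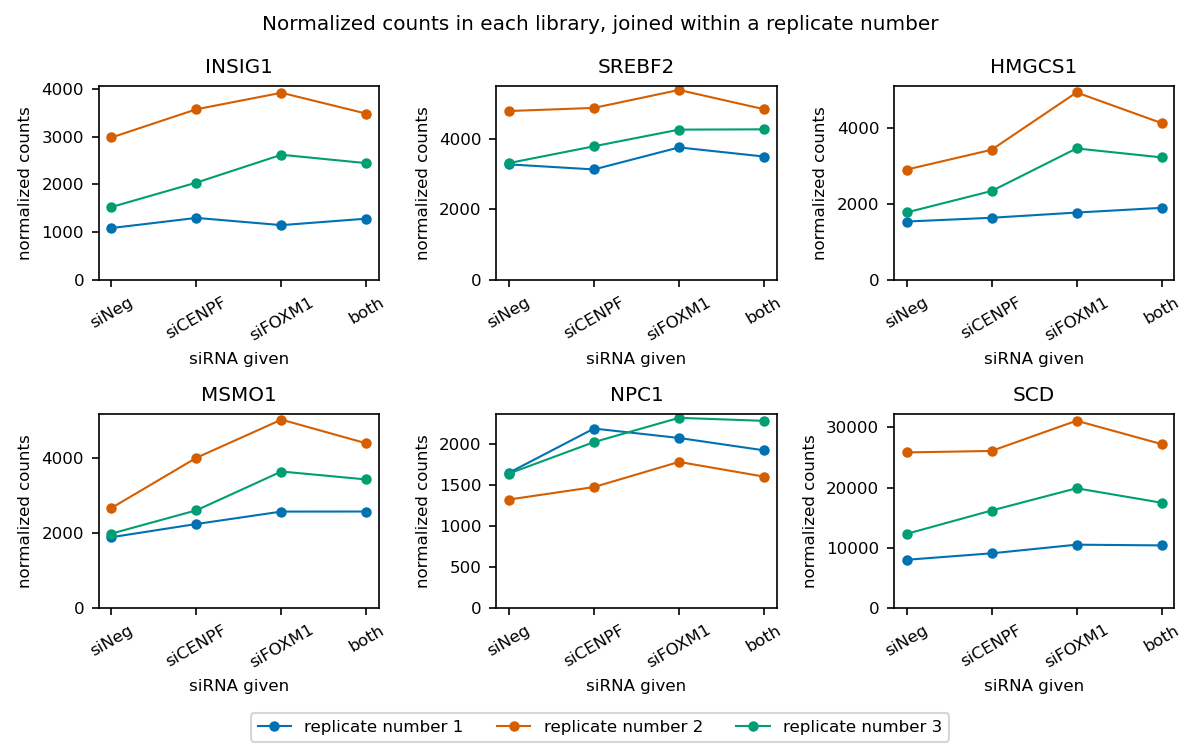
Normalized counts of 6 genes (vertical axis, from 0) in each library, by siRNA given (horizontal axis), with lines joining libraries of the same replicate number. For INSIG1, HMGCS1, MSMO1 and SCD the line of number 2 lies above the others in every group, and for NPC1 it lies below.

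Against that spread, the knockdown comparisons asked whether loss of CENPF, of FOXM1 or of both moved the lipid genes. Without a term for the replicate number, limma called none of the 34 genes in any of the 3 comparisons with siNeg, against 0.337% of all genes with siCENPF, 0.66% with siFOXM1 and 0.458% with both. edgeR and DESeq2 on recovered reads also called 0 of the 34. Over all genes, edgeR called 48 of 14150 with siCENPF, 103 with siFOXM1 and 68 with both. DESeq2 called 136 of 13847, 254 of 12752 and 169 of 11930. At an unadjusted limma p under 0.05 there were 0 of the 34 with siCENPF, 2 with siFOXM1 (MSMO1 and NPC1) and 1 with both (MSMO1). Among all 14857 genes there were 821, 1155 and 1093. With the replicate number as a block, limma called 16 of the 34 genes higher and 0 lower with siFOXM1, where 4.48% of all genes were called higher and 4.23% lower (8.72% in all). It called 10 higher and 0 lower with both siRNAs, against 4.18% and 3.72% of all genes (7.9% in all). With siCENPF it called 2 higher and 0 lower, against 2.86% and 1.66% (4.52% in all). The 10 genes called with both were all among the 16 called with siFOXM1, and the comparisons share the siNeg libraries.

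The block counts depended on which replicate number was used. Without number 3, the count with siFOXM1 was 7 (3.45% of all genes called), against 13 without number 1 (4.53%) and 12 without number 2 (7.55%). The corresponding counts with both siRNAs were 4 (3.16%), 8 (3.63%) and 11 (7.3%), and with siCENPF they were 1 (2.38%), 2 (1.95%) and 4 (4.21%). The share called over all genes was lower in each case than with all numbers. The count of lipid genes was also lower with siFOXM1 in each case. It rose without number 2 with siCENPF and with both siRNAs, and it was unchanged with siCENPF without number 1. FDPS was the 1 member called lower than siNeg in these fits, with siCENPF without number 2, at -0.20 (limma adjusted p = 0.0417). Called in the block fit with all numbers and after leaving out each in turn were DHCR7, IDI1, MSMO1, NPC1, SCD and SQLE with siFOXM1, DHCR7, MSMO1 and SQLE with both, and MSMO1 with siCENPF.

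The sizes were modest. With siFOXM1 the median log2 fold change of the 34 genes was 0.22, and 32 of the 34 lay above 0, where the median of all genes was 0.00. Within replicate numbers 1, 2 and 3 the median was 0.09, 0.23 and 0.35, and 25 of the 34 genes were above siNeg within all 3 numbers, against 21.6% of all genes. With both siRNAs the median was 0.16, with 31 of the 34 above 0, and 21 were above siNeg within all 3 numbers, against 20.2%. With siCENPF the median was 0.05, with 22 of the 34 above 0, and 12 were above siNeg within all 3 numbers, against 17.5%. The libraries of 2 groups were fully apart for NPC1 and ACLY with siFOXM1, both higher, against 6.56% of all genes, and no gene of the 34 was higher and fully apart with siCENPF (4.87% of all genes) or with both (6.35%). Leaving out single libraries in the fit without the block moved the siFOXM1 median from 0.071 (without siFOXM1 2) and 0.088 (without siNeg 1) to 0.43 (without siFOXM1 1). It moved the median with both from 0.039 (without siNeg 1) and 0.053 (without siCENPF+siFOXM1 2) to 0.33 (without siCENPF+siFOXM1 1) and 0.32 (without siNeg 2), and that with siCENPF from -0.12 (without siCENPF 2) and -0.085 (without siNeg 1) to 0.20 (without siCENPF 1) and 0.18 (without siNeg 2). Leaving out 1 library also leaves the groups with unlike replicate numbers. With a whole number left out of the block fit, the median ran from 0.18 to 0.28 with siFOXM1. It ran from 0.12 to 0.19 with both and from 0.042 to 0.095 with siCENPF.

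**Figure D3:**
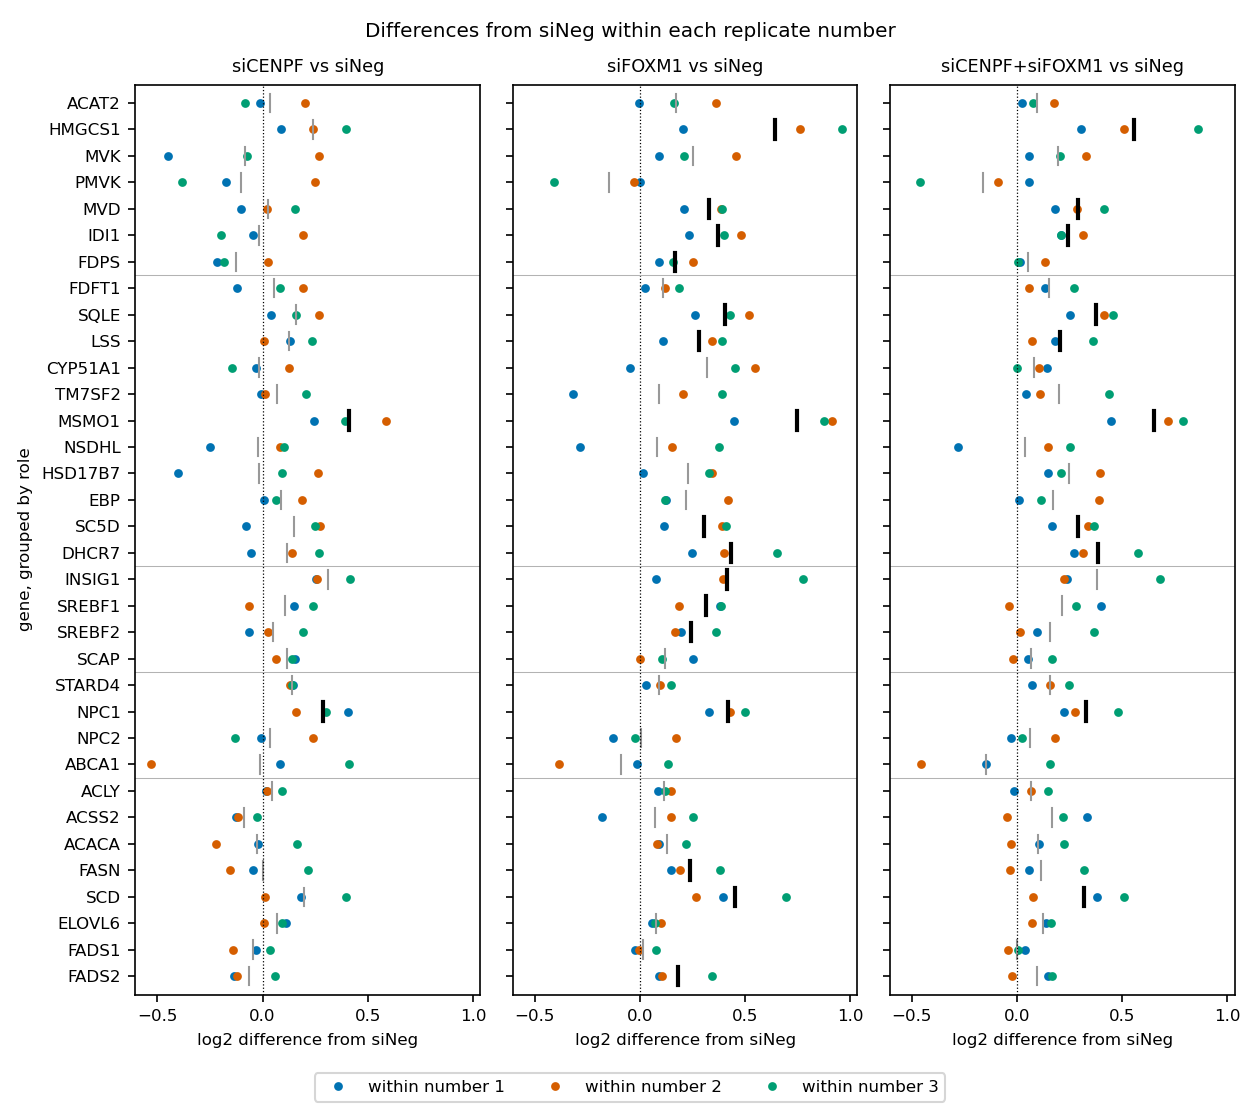
Log2 difference from siNeg within each replicate number (coloured points) for the 34 genes (rows) in 3 comparisons; the bar is the fold change of the block fit, black and thick where its limma adjusted p was under 0.05. With siFOXM1 25 genes have all 3 points above 0, with both siRNAs 21 and with siCENPF 12.

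Among the 7 mevalonate enzymes, 4 were called higher with siFOXM1 in the block fit (HMGCS1, IDI1, MVD and FDPS), 3 with both siRNAs (HMGCS1, IDI1 and MVD) and 0 with siCENPF. HMGCS1 (ENSG00000112972, chromosome 5, 43289395 to 43313512, minus strand) had 1544, 2913 and 1784 normalized counts in the siNeg libraries with numbers 1, 2 and 3, the order used throughout. Counts were 1643, 3435 and 2348 with siCENPF, 1781, 4946 and 3471 with siFOXM1, and 1905, 4139 and 3235 with both. The knockdown library of each number lay above its own siNeg library, while the groups overlapped widely. The mean rose from 2080 ± 731 to 3399 ± 1584 with siFOXM1 (SD, n = 3), a log2 fold change of 0.64, with limma adjusted p = 0.845 without the block and 0.0112 with it. With both siRNAs the log2 fold change was 0.56 (limma adjusted p = 0.902 without and 0.0245 with the block).

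IDI1, which isomerizes isopentenyl diphosphate, had 1293, 2176 and 1820.0 normalized counts in siNeg and 1519, 3040.1 and 2398 with siFOXM1. It had 1254, 2484 and 1587 with siCENPF and 1495, 2704 and 2102 with both. Its log2 fold change with siFOXM1 was 0.37 (limma adjusted p = 0.9 without and 0.000339 with the block) and with siCENPF -0.02 (0.938 with the block). MVD, the mevalonate diphosphate decarboxylase, had 603, 1066 and 775 normalized counts in siNeg and 698, 1396 and 1017 with siFOXM1. It had 562, 1083 and 862 with siCENPF and 683, 1297 and 1031 with both. With siFOXM1 MVD stood at a log2 fold change of 0.33 (limma adjusted p = 0.922 without and 0.0021 with the block). In both genes each siFOXM1 library was above the siNeg library of its number, and the groups overlapped. FDPS, the farnesyl diphosphate synthase, stood at 0.17 (0.0460 with the block), but it has 8 annotated pseudogenes, and its reads are uncertain in their assignment. The other 3 were not called in any comparison with siNeg: ACAT2, which joins acetyl-CoA units, stood at 0.17 with siFOXM1, the mevalonate kinase MVK at 0.25, and PMVK, the next kinase, at -0.15. ACAT2 shares 52.3% of its exon bases with genes on the other strand, and without a stated strand setting these reads cannot be told apart. Such sharing was 18.6% for FDPS and 14.8% for IDI1, with HMGCS1 between them.

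The 11 enzymes of the sterol branch held the gene with the largest fold change with siFOXM1 of the 34. MSMO1 (ENSG00000052802, chromosome 4, 165327623 to 165343160, plus strand), a methylsterol monooxygenase that removes methyl groups at carbon 4 of the sterol ring, had 1893, 2675 and 1989 normalized counts in siNeg. It had 2246, 4019 and 2613 with siCENPF, 2579, 5041 and 3651 with siFOXM1, and 2580.1, 4405 and 3439 with both. Every knockdown library was above the siNeg library of its number, and the lowest siFOXM1 library was just below the highest siNeg library. The mean went from 2185 ± 427 in siNeg to 3757 ± 1234 with siFOXM1, a 1.72-fold difference. The log2 fold change was 0.75 with siFOXM1 (limma adjusted p = 0.548 without and 2.50e-07 with the block), 0.65 with both (0.678 and 2.23e-06) and 0.41 with siCENPF (1.00 and 0.000902). In the authors' deposited table for siFOXM1 its log2 fold change was 0.78 with an edgeR adjusted p of 0.0399. This was the only adjusted p under 0.05 for the 34 genes in their 3 tables. Over all genes, it was under 0.05 for 107 of 14393 with siFOXM1, 80 of 14336 with both and 27 of 14306 with siCENPF.

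DHCR7, the reductase of the last step to cholesterol in 1 arm of the pathway, had 1298, 2383 and 1707 normalized counts in siNeg and 1539, 3146 and 2686 with siFOXM1. It had 1249, 2627 and 2056 with siCENPF and 1567, 2962 and 2543 with both. SQLE, the squalene epoxidase that controls flux into sterols, had 1180, 1626 and 1336 in siNeg and 1417, 2331 and 1796 with siFOXM1. It had 1215, 1959 and 1494 with siCENPF and 1405, 2162 and 1832 with both. For both genes the siFOXM1 and combined libraries exceeded the siNeg library of their number, with overlap between groups. The log2 fold change with siFOXM1 was 0.43 for DHCR7 (limma adjusted p = 0.889 without and 3.74e-05 with the block) and 0.40 for SQLE (0.748 and 4.09e-05). LSS, which closes the sterol rings, and SC5D, a sterol desaturase, were called too with the block, at 0.28 and 0.31 (limma adjusted p = 0.00397 and 0.00774). These 5 genes were also called with both siRNAs, with log2 fold changes of 0.65 for MSMO1, 0.39 for DHCR7, 0.37 for SQLE, 0.29 for SC5D and 0.20 for LSS. The squalene synthase FDFT1, CYP51A1, TM7SF2, NSDHL, HSD17B7 and EBP were not called in any comparison with siNeg, with log2 fold changes of 0.08 to 0.32 with siFOXM1. CYP51A1, the lanosterol demethylase, shares 83.2% of its exon bases with other genes, and HSD17B7 has 2 annotated pseudogenes and CYP51A1 has 3, so their reads are uncertain in assignment.

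Of the 4 regulators, INSIG1, SREBF1 and SREBF2 were called higher with siFOXM1 in the block fit, and none was called with both siRNAs or with siCENPF. These calls depended on the libraries used. With siFOXM1, none of the regulators was called without number 3. SREBF1 and SREBF2 were not called without number 1, nor INSIG1 without number 2. A block fit on the FPKM table called none of them. With both siRNAs, INSIG1 was called without number 1, and SREBF1 and SREBF2 without number 2. INSIG1 (ENSG00000186480, chromosome 7, 155297776 to 155310235, plus strand) had 1089, 2982 and 1528 normalized counts in siNeg, 1301, 3572 and 2039 with siCENPF, 1149.7, 3917 and 2621 with siFOXM1, and 1285, 3480 and 2445 with both. Its level differed more between replicate numbers than between siRNAs: the number 1 library was lowest and the number 2 library highest in every group. Its log2 fold change was 0.42 with siFOXM1 (limma adjusted p = 0.962 without and 0.0322 with the block), 0.38 with both (0.966 and 0.0515) and 0.31 with siCENPF (1.00 and 0.145). The siCENPF value became -0.067 without siCENPF 2. SREBF2 (ENSG00000198911, chromosome 22, 41833079 to 41907308, plus strand), the main factor of sterol genes, had 3272, 4781 and 3309.7 normalized counts in siNeg and 3752, 5376 and 4255 with siFOXM1. It had 3129, 4869 and 3784 with siCENPF and 3494, 4832 and 4263 with both. SREBF1, whose products act on fatty acid genes, had 832, 1901 and 1227 in siNeg and 1082, 2162 and 1603 with siFOXM1. Its counts were 922, 1818 and 1448 with siCENPF and 1099, 1852 and 1489 with both. Each siFOXM1 library of these genes was above the siNeg library of its number. The log2 fold change with siFOXM1 was 0.24 for SREBF2 (limma adjusted p = 0.878 without and 0.00608 with the block) and 0.32 for SREBF1 (0.935 and 0.00314). SCAP hardly varied, with 1185, 1312 and 1188 normalized counts in siNeg, 1319, 1370.2 and 1308 with siCENPF, 1412, 1314 and 1279 with siFOXM1 and 1229.8, 1294 and 1334 with both. Its log2 fold change with siFOXM1 was 0.12 (limma adjusted p = 0.274 with the block).

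Among the 4 genes of sterol transport, NPC1 was called higher in all 3 comparisons with siNeg in the block fit, and STARD4, NPC2 and ABCA1 in none. NPC1 (ENSG00000141458, chromosome 18, 23506184 to 23586898, minus strand) had 1646, 1319.9 and 1636 normalized counts in siNeg, 2184, 1472 and 2019.6 with siCENPF, 2069.7, 1778 and 2315 with siFOXM1, and 1919, 1599 and 2278 with both. Every siFOXM1 library was above every siNeg library. Its log2 fold change was 0.42 with siFOXM1 (limma adjusted p = 0.53 without and 7.49e-05 with the block), 0.33 with both (0.759 and 0.00169) and 0.29 with siCENPF (1.00 and 0.0073). STARD4, a soluble sterol carrier, had 1625, 1830.4 and 1519 normalized counts in siNeg, 1795, 2003 and 1675 with siCENPF, 1657, 1958 and 1683 with siFOXM1 and 1708, 2040.1 and 1801 with both, and the groups overlapped. ABCA1, which exports cholesterol to lipid-poor lipoproteins and is a target of LXR rather than SREBP, had 316, 596 and 219 in siNeg and 313, 457 and 239.9 with siFOXM1. It had 335, 412 and 291 with siCENPF and 285, 433 and 244 with both. The siNeg 2 library stood far above the others, and the log2 fold change of -0.09 with siFOXM1 (limma adjusted p = 0.737 with the block) became 0.30 without that library.

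For the 8 genes of fatty acid synthesis the median siFOXM1 effect was 0.12 on the log2 scale, against 0.28 in the sterol branch and 0.25 in the mevalonate pathway; the difference between roles was not tested. Of these 8, SCD, FASN and FADS2 were called higher with siFOXM1 in the block fit, SCD with both siRNAs, and 0 with siCENPF. SCD (ENSG00000099194, chromosome 10, 100347124 to 100364834, plus strand) had the highest level of the 34 genes per length, 152 ± 95.8 FPKM in siNeg (SD, n = 3). FASN, the fatty acid synthase, followed at 41.2 ± 8.61 FPKM, and TM7SF2 was lowest at 0.578 ± 0.241. SCD had 7992, 25832 and 12294 normalized counts in siNeg, 9064, 26078 and 16178 with siCENPF, 10499.9, 31102 and 19877 with siFOXM1, and 10382, 27214 and 17472 with both. The spread between the numbers far exceeded the differences between siRNAs, although each siFOXM1 library was above the siNeg library of its number. The log2 fold change was 0.45 with siFOXM1 (limma adjusted p = 0.952 without and 8.24e-05 with the block) and 0.32 with both (0.968 and 0.00312). FASN had 7923, 11539.8 and 10056 normalized counts in siNeg and 8785, 13153 and 13101 with siFOXM1. It had 7678, 10353 and 11665 with siCENPF and 8248, 11278 and 12531 with both. The log2 fold change with siFOXM1 was 0.24 (limma adjusted p = 0.896 without and 0.00688 with the block). FADS2, which starts the synthesis of polyunsaturated fatty acids, had 2918, 6715 and 4319 in siNeg and 3112, 7217 and 5480.5 with siFOXM1. It had 2658, 6163 and 4499 with siCENPF and 3228, 6593 and 4847 with both. With siFOXM1 FADS2 stood at a log2 fold change of 0.18 (limma adjusted p = 0.981 without and 0.0396 with the block). SCD and FADS2 each have 1 annotated pseudogene, and FADS2 shares 4.89% of its exon bases with FADS1 and FEN1. Some of their reads are thus uncertain in assignment. Without the block, leaving out siNeg 1 took FADS2 with siFOXM1 to -0.11 and SCD with both to -0.066. Leaving out siFOXM1 2 took FADS2 to -0.088, and leaving out siCENPF+siFOXM1 2 took SCD with both to -0.018. ACLY, which makes cytosolic acetyl-CoA, had 8099.5 to 8884 in siNeg and 8967 to 9419 with siFOXM1, a log2 fold change of 0.12 (limma adjusted p = 0.129 with the block). ACSS2, ACACA, ELOVL6 and FADS1 were not called in any comparison with siNeg, with log2 fold changes of 0.02 to 0.13 with siFOXM1.

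**Figure D4:**
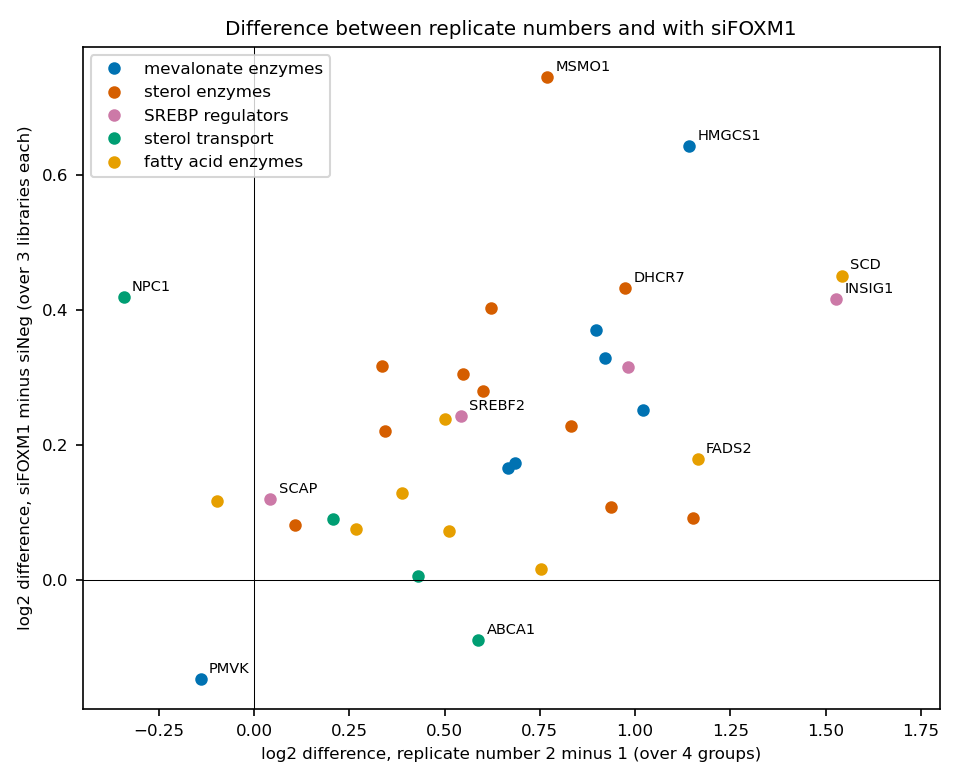
Each of the 34 genes by its log2 difference between replicate numbers 2 and 1 over the 4 groups (horizontal) and its log2 fold change with siFOXM1 against siNeg without the block (vertical), coloured by role; both axes use the same libraries. MSMO1 is highest at 0.75, SCD and INSIG1 lie farthest right at 1.54 and 1.53, and NPC1 lies left of 0 at -0.34 with a fold change of 0.42.

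The knockdowns were also compared with each other. Without the block, limma called 0 of the 34 genes in each of these comparisons, with 0 at an unadjusted p under 0.05, and edgeR and DESeq2 called 0. The limma background was 0.458% of all genes for siFOXM1 against siCENPF, 0.0808% for both siRNAs against siCENPF and 0.00673% for both against siFOXM1. At an unadjusted limma p under 0.05 there were 1020, 439 and 293 of all 14857 genes, in the same order. edgeR called 70, 11 and 1 of 14150 genes, and DESeq2 158, 33 and 4 of 14122. With the block, 11 of the 34 genes were higher with siFOXM1 than with siCENPF, and 0 lower, where 3.35% of all genes were called higher and 4.23% lower (7.57% in all). They were FDPS, IDI1, MVD, MVK, SQLE, DHCR7, MSMO1, SREBF2, FASN, FADS2 and SCD, with log2 differences of 0.39 for IDI1, 0.34 for MSMO1 and 0.29 for FDPS. That count was 5 without number 3 (4.09% of all genes called), 7 without number 1 (3.23%) and 9 without number 2 (4.67%). Both siRNAs together exceeded siCENPF for IDI1, MVD and DHCR7 (3 of 34, against 0.431% of all genes called higher, 1.03% lower and 1.46% in all), by 0.26, 0.27 and 0.27. That count was 0 without number 3 (0.7%), 1 without number 1 (0.424%) and 4 without number 2 (1.61%). Adding siCENPF to siFOXM1 gave 0 calls with the block (0.296% of all genes), and the median log2 difference was -0.05. At an unadjusted limma p under 0.05 there were 2 of the 34 genes, against 1138 of all 14857.

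An interaction term tested whether the combined effect was the sum of the effects of either siRNA alone. Without the block it called 0 genes, among the 34 and among all genes (0%), and with the block it called MSMO1 and NPC1, both below the sum, against 0.841% of all genes and 0.734% called lower. The interaction was -0.50 for MSMO1 (limma adjusted p = 0.0125) and -0.38 for NPC1 (0.0426). Leaving out number 3 left 0 calls among the 34 (0.296% of all genes), leaving out number 1 left 1 (0.202%), and leaving out number 2 left 2 (0.734%).

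Genes of neighbouring pathways were taken from lists of known members. ERLIN1, an endoplasmic reticulum protein that binds sterol and limits SREBP activation, was called higher without the block in all 3 comparisons with siNeg, at 0.44 with siCENPF (limma adjusted p = 0.0173), 0.36 with siFOXM1 (0.0358) and 0.41 with both (0.0206). It was the only call without the block among 13 tested genes of SREBP processing and turnover, and the other lists described below had none. With the block, 4 of the 13 were called higher with siCENPF, 5 higher and 1 lower with siFOXM1, and 4 higher with both, where 4.52%, 8.72% and 7.9% of all genes were called. SEC24D, a coat protein of vesicles leaving the endoplasmic reticulum, had the next smallest p in each, at 0.33 with siCENPF, 0.32 with siFOXM1 and 0.33 with both. The 3 comparisons share the siNeg libraries and are not independent. With the block, the interaction of the siRNAs was -0.39 for ERLIN1 (limma adjusted p = 0.00187) and -0.32 for SEC24D (0.0497). These were the only interaction calls among the 13, where 0.734% of all genes were called lower. ERLIN2, the partner of ERLIN1, was the gene called lower with siFOXM1, at -0.27 (limma adjusted p = 0.00424), and it was called higher with siCENPF, at 0.23 (0.0292).

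Of 9 tested genes of the LXR axis and efflux, none was called in these comparisons with or without the block, and the median log2 fold change was 0.0049 with siCENPF, 0.048 with siFOXM1 and -0.0048 with both. Of 15 genes of sterol uptake, storage and transfer, the block fit called 2 higher with siCENPF, 1 higher and 1 lower with siFOXM1 and 1 higher with both, against the same 4.52%, 8.72% and 7.9% of all genes. CAV1, the caveolin of plasma membrane caveolae, was higher in each, at 0.22, 0.24 and 0.30. VLDLR, a lipoprotein receptor, was lower with siFOXM1 at -0.35 (limma adjusted p = 0.0178).

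Of 20 further fatty acid and glycerolipid genes, the block fit called 1 higher with siCENPF, 1 higher and 2 lower with siFOXM1, and 3 higher and 2 lower with both. With siCENPF that is 1 gene of 20 beside 4.52% of all genes called, with siFOXM1 3 beside 8.72% and with both 5 beside 7.9%. SCD5, another desaturase, was lower with siFOXM1 at -0.44 and with both at -0.26, opposite to SCD, and LPIN2, a phosphatidate phosphatase, was lower at -0.44 and -0.28. LPIN1, of the same family, was higher at 0.27 and 0.29. FADS3 was higher with siCENPF at 0.44 and with both at 0.33. Of 9 fatty acid oxidation genes, 2 were called higher with siCENPF, 2 higher with siFOXM1, and 2 higher and 2 lower with both, beside the same background shares. PPARA, a receptor that drives oxidation genes, was among those called higher in each, at 0.53, 0.49 and 0.58.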

How the data were processed

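PolyA RNA of 12 libraries was sequenced. Per the submitters' processing notes, bcl2fastq, Trimmomatic, TopHat and edgeR were used with hg38, with no versions. No source used here gives the strand setting of counting. The authors deposited normalized counts, a signal on a count scale, by a scaling that no source used here gives. The authors also deposited FPKM for 60279 genes. Per the file headers, 3 edgeR tables against siNeg hold each library's CPM, a log2 fold change, a score (the likelihood ratio) and a p-value.

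limma 3.58.1 (R 4.3.3) was fitted with trend and robust moderation to log2(normalized count + 1) of 14857 genes with at least 10 in at least 3 libraries, with 4 group means. P-values were two-sided, adjusted by Benjamini-Hochberg over all genes, with a threshold of 0.05. Fold changes are on that log2 scale, which understates low genes. Reads were recovered from the deposited CPM (100% whole within 0.01 reads, 14150 genes in all libraries) for edgeR 4.0.16 and DESeq2 1.42.0. Fits were tested on simulated data. No 2 libraries were identical.

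The labels number replicates 1 to 3. Deviations from group means correlated at 0.272 to 0.639 in all 18 same-number pairs and at -0.510 to 0.0248 in 36 others. Deviations within a group cancel out, so the low values of the others follow in part from those of the same-number pairs. The numbers were taken to pair the libraries, from the data and not from a stated batch. Fits with the number as a block are given beside those without it.

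The members, lists and naming rule were chosen with earlier results of these data known. All 34 genes are named by role. Normalized counts in all 12 libraries are given for the 4 regulators and, in every other role, the 3 genes with the smallest block p against siNeg, and ACLY, as ranges, was added after its values were seen. Genes of other lists are given when called, at most 2 per list and direction. Alternatives were other pseudocounts, filters, scalings, tools, the FPKM table and leaving out libraries. The list of the non-sterol isoprenoid branch is not reported here.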

Additional observations from a re-analysis of the deposited data

Results flagged for a closer look

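For MSMO1 and NPC1 the effect of siFOXM1 was estimated smaller in cells also given siCENPF than in cells given siFOXM1 alone. With the replicate number as a block, the interaction was -0.50 for MSMO1 and -0.38 for NPC1 on the log2 scale (limma adjusted p = 0.0125 and 0.0426), and without the block neither passed. The same term can be read as a smaller effect of siCENPF in cells also given siFOXM1. It also depends on the siNeg libraries, which both single effects share. The calls rest on the libraries used: with the block, 0 of the 34 genes were called without number 3, 1 without number 1 and 2 without number 2. A block fit on the FPKM table called neither gene (0.0853% of all genes called). Groups of 3 libraries were too small for a check of single outlying libraries.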

How the results depend on the processing

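Without a replicate block, the count of called genes among the 34 was 0 in all 7 comparisons under each other pseudocount, filter, scaling, table and tool run. Over all genes the most calls in these runs were 254 of 12752, by DESeq2 with siFOXM1 against siNeg. With the replicate block, limma and edgeR on recovered reads both gave 2 genes with siCENPF, 16 with siFOXM1 and 10 with both siRNAs against siNeg. Both gave 3 for both against siCENPF, 11 for siFOXM1 against siCENPF and 2 for the interaction. The count for both against siFOXM1 stayed 0. Of all 14150 genes, blocked edgeR called 5.02%, 9.36%, 8.83%, 1.62%, 8.01%, 0.827% and 0.297%, in the order of these 7 comparisons. On the FPKM table, a replicate block, added after seeing the data, gave 9 with siFOXM1 (5.03% of 14069 genes called), 4 with both (4.17%) and 4 for siFOXM1 against siCENPF (3.37%), and 0 elsewhere. Leaving out 1 replicate number from the block (number 1, 2 or 3) gave 2, 4 or 1 genes with siCENPF, 13, 12 or 7 with siFOXM1, 8, 11 or 4 with both, 1, 4 or 0 for both against siCENPF, 7, 9 or 5 for siFOXM1 against siCENPF and 1, 2 or 0 for the interaction. The block changed no other call of the 34 genes. Leaving out 1 library without the block, the median log2 fold change ran from -0.12 to 0.20 with siCENPF, 0.071 to 0.43 with siFOXM1, 0.039 to 0.33 with both, -0.24 to 0.14 for both against siFOXM1, -0.039 to 0.29 for both against siCENPF, 0.0049 to 0.40 for siFOXM1 against siCENPF and -0.29 to 0.050 for the interaction. The medians that changed sign were -0.085 (without siNeg 1) and -0.12 (without siCENPF 2) with siCENPF, 0.14 (without siFOXM1 2) and 0.12 (without siCENPF+siFOXM1 1) for both against siFOXM1, -0.039 (without siCENPF 1) for both against siCENPF, and 0.050 (without siNeg 1), 0.030 (without siCENPF 2), 0.034 (without siFOXM1 2) and 0.046 (without siCENPF+siFOXM1 1) for the interaction. The cause was not tested. With a whole number left out of the block fit, no median changed sign. The range was 0.042 to 0.095 with siCENPF, 0.18 to 0.28 with siFOXM1 and 0.12 to 0.19 with both. It was -0.070 to -0.025 for both against siFOXM1 and 0.092 to 0.14 for both against siCENPF. For siFOXM1 against siCENPF it was 0.12 to 0.20, and for the interaction -0.16 to -0.067. For the 16 genes given per library, the fold change against siNeg changed sign in 44 alternatives without the block, most with 1 library left out. It kept sign and call in 916. With the block it changed sign in 8, kept sign and call in 168 and became called in 112. Apart from the regulators, these genes were chosen by their smallest block p, so the last count follows in part from that choice. The count of genes that differed between replicate numbers was 29 to 31 throughout. Depth, 3 libraries a group and the spread between numbers all limit these comparisons, and which limits them most was not tested.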
